A study of Mus musculus with 14 samples.

Results

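The galectin genes of dorsal horn microglia were followed across 14 RNA-seq libraries. The members were the 5 genes of the deposited values whose symbol is Lgals1, Lgals3, Lgals3bp, Lgals8 or Lgals9, out of 14329 genes in all, and each was set beside Ly6c2, the gene of the monocyte surface antigen Ly6C2. At day 5 after serum transfer (ST) the dorsal part of the spinal cord was taken and its microglia sorted as CD45low CD11b+ CX3CR1+, with 2000 cells to a sample. The gate in the study also left out cells positive for Ly6C or CCR2 at the surface. Wild-type (WT) C57BL/6 mice and heterozygous TASTPM mice, which carry mutant human APP and model amyloid pathology, were 6 months old. Neurons are the main cells in which the promoter used, murine Thy-1, is active. Mice were injected with either K/BxN serum, which carries arthritogenic antibodies, or Control serum. The groups were WT Control ST (n = 3), WT K/BxN ST (n = 4), TASTPM Control ST (n = 3) and TASTPM K/BxN ST (n = 4), which the study describes as groups of mice, and the labels give no sex, litter or batch for a library. Libraries are numbered by their labels in TASTPM K/BxN ST and by their order in the deposited values in the other groups.

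Galectins are lectins that bind β-galactosides on glycoproteins and glycolipids. They are made in the cytosol without a signal peptide, leave the cell by an unconventional route, and cross-link glycosylated receptors at the surface or mark the glycans exposed inside damaged endosomes and lysosomes. Lgals1 encodes galectin-1, a dimer with a single type of carbohydrate site, and Lgals3 encodes galectin-3, the chimera type, whose reported surface partners include Tlr4 and Trem2. Lgals8 and Lgals9 encode tandem-repeat galectins with a pair of carbohydrate sites on 1 chain, of which galectin-8 marks broken vesicles for autophagy and galectin-9 is a ligand of the immune checkpoint receptor encoded by Havcr2. Lgals3bp is not itself a lectin: it encodes a secreted scavenger-receptor glycoprotein that galectin-3 binds.

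In the GRCm39 assembly Lgals1 lies on chromosome 15 (78810875 to 78814670, plus strand), Lgals3 on chromosome 14 (47605208 to 47623624, plus strand), Lgals8 on chromosome 13 (12454282 to 12479840, minus strand), Lgals9 on chromosome 11 (78853800 to 78875798, minus strand) and Lgals3bp on chromosome 11 (118280716 to 118292918, minus strand). All are protein-coding. Lgals1 shares 518 exonic bases with the antisense gene Gm30368 and Lgals8 shares 155 with Heatr1 on the opposite strand. Whether strand was used in the counting is not given in the sources used here, so reads on those shared bases cannot be told apart.

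Promoters are shown for Lgals3 and Lgals9, the members whose levels varied most and least between libraries, respectively, as 300 bases around the start that RefSeq gives, most of them upstream. The sequences come from a RefSeq table of the GRCm38.p6 assembly, which held 4 of the 5 members (Lgals1 is named only), and an exact match placed each once in GRCm39. Lgals3 is at chr14:47611067-47611366 on the plus strand and Lgals9 at chr11:78875701-78876000 on the minus strand. The Lgals3 and Lgals8 windows lie inside the gene spans given above, whose outermost starts are further upstream and were not searched. Capitals mark every match to a motif searched on both strands.
Lgals3: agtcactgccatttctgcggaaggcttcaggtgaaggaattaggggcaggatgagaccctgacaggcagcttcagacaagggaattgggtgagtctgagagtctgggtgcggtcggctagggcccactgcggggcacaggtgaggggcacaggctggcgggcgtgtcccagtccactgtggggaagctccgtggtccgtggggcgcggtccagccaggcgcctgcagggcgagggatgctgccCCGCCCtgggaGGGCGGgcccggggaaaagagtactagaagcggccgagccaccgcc
Lgals9: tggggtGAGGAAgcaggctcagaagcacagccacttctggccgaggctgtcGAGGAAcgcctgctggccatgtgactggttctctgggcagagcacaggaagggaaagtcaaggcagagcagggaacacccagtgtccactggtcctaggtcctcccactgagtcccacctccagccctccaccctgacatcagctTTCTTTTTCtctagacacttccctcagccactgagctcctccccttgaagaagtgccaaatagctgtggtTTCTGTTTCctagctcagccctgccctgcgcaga
The Lgals3 window held 2 matches to the GC box (GGGCGG), bases -7 to -2 and 4 to 9 from the start, and had 67% G and C. A GC box was present in 35.66% of the 32851 promoters of this length. The Lgals9 window held 2 matches to an interferon response element (ISRE-like, GAAANNGAA), at bases -54 to -46 and 16 to 24, a motif found in 8.56% of promoters, and 2 matches to the PU.1 core (GAGGAA; 28.28% of promoters). Lgals3bp held 1 PU.1 core, at bases 32 to 37, and the Lgals8 window held none of the motifs. The GAS motif (TTCNNNGAA, which can overlap an ISRE-like match; 8.298% of promoters), AP-1 (TGANTCA; 7.808%) and the TATA box (TATAAA; 13.62%) had no match in the 4 windows. These matches describe letters and not sites of binding.

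Reads on genes ranged from 14223015 to 20239175 per library. All 10 microglia markers were detected in every group, but Ly6c2 fell into separate clusters: 4 K/BxN ST libraries, numbers 1 and 2 of WT and 1 and 2 of TASTPM, had 12898 to 29133 normalised counts, while the other 10 libraries had 1.87 to 17.8. The limit of 1000 that separates them was set after the values were seen. In these 4 libraries the 10 monocyte markers summed to between 0.607% and 1.22% of reads, against 0.00131% to 0.00708% in the other 10. Their microglia markers summed to 1.55% to 3.69% of reads, against 4.56% to 5.89%. Neutrophil markers were at 1.20% to 1.32% of reads in WT 1 and TASTPM 1 and 2, but at 0.0623% in WT 2, inside the range of the other 10 libraries (0.0243% to 0.0708%). The 8 markers of border-associated macrophages reached 0.00915% to 0.0261% in the 4 and up to 0.00623% in the rest, with Lyve1 and Clec10a, as well as the monocyte marker Vcan, at 0 in WT Control ST. The part of these other cells in the galectin values was not tested, although the gate would remove cells with Ly6C or CCR2 at their surface, and the fold changes of the members are given with and without the 4 libraries. In bulk samples fewer cells of a type and less RNA per cell cannot be told apart.

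Under Control ST the members had unequal levels. Per kilobase of annotated exon, the 6 Control ST libraries held 3228 ± 233 normalised counts of Lgals9 (SD, n = 6), 1721 ± 381 of Lgals3bp, 321 ± 64.6 of Lgals8, 62.9 ± 38.5 of Lgals3 and 41.3 ± 36.8 of Lgals1. The length joins the exons of every annotated transcript of a gene, so the order of the genes depends on it. Undivided by length, the mean was 9894 for Lgals3bp and 7102 for Lgals9 in WT Control ST, and 8210 and 7551 in TASTPM Control ST. The lowest Lgals9 library (2993 per kilobase) was above the highest for Lgals3bp (2093), and the lowest Lgals3bp library (1239) was above the highest for Lgals8 (414). The lowest Lgals8 library (267 per kilobase) was in turn above the highest for Lgals3 (124). Lgals3 and Lgals1, whose ranges were 28.1 to 124 and 16.1 to 112 per kilobase, did not differ beyond their spread. On the same scale the mean of K/BxN ST was 3666 in WT and 3500 in TASTPM for Lgals3, and 3217 and 3075 for Lgals9, means that for Lgals3 rested on 2 libraries of each genotype.

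Lgals3, the galectin-3 gene, held 95.6, 219 and 129 normalised counts in the WT Control ST libraries. In WT K/BxN ST it held 22353, 11178, 2.39 and 285. WT libraries 1 and 2 thus stood far above Control ST, library 4 was just above, and library 3, with 2 reads against a floor of 3, was below every Control ST library. In TASTPM, Control ST libraries had 64.8, 75.5 and 286 normalised counts of Lgals3. TASTPM K/BxN ST libraries had 22744, 9134, 236 and 171, so that numbers 1 and 2 were above all Control ST libraries and 3 and 4 inside their range. The K/BxN ST over Control ST ratio of mean normalised counts was 57.2 in WT and 56.8 in TASTPM. On the log2(normalised count + 1) scale, which weighs the libraries more equally, the fold change by limma was 2.32 ± 2.40 in WT (SE, adjusted p = 0.822) and 3.92 ± 2.40 in TASTPM (SE, adjusted p = 0.964). Two-sided exact permutation tests over the 35 arrangements gave p = 0.429 in WT and p = 0.171 in TASTPM.

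Lgals1, the galectin-1 gene, had the same 4 libraries at the top. WT Control ST libraries held 34.7, 27.7 and 77.4 normalised counts, and WT K/BxN ST libraries 5041, 2139, 49.0 and 20.7. TASTPM Control ST libraries held 27.2, 62.2 and 190, and TASTPM K/BxN ST libraries 4798, 1552, 5.87 and 38.4. In both genotypes K/BxN ST numbers 1 and 2 were above all Control ST libraries, 1 library was below all of them and the remaining 1 lay between. The log2 fold change by limma was 2.93 ± 2.12 in WT (SE, adjusted p = 0.774) and 1.60 ± 2.12 in TASTPM (SE, adjusted p = 0.966), with p = 0.343 and p = 0.543 by the exact permutation test. Without 1 library at a time the Lgals1 value ran from 1.62 (without K/BxN ST library 1) to 4.24 in WT and from 0.10 (without K/BxN ST library 1) to 3.25 (without K/BxN ST library 3) in TASTPM. Neither Lgals1 nor Lgals3 differed between serums beyond the spread between libraries in this fit.

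Lgals3bp, the secreted binding partner of galectin-3, was abundant in every library. It had 10861, 10522 and 8300 normalised counts in WT mice given Control ST and 5691, 6827, 8789 and 9834 in those given K/BxN ST, so that libraries 1 and 2 were below every Control ST library. In TASTPM, Control ST gave 11007, 7104 and 6518, and K/BxN ST gave 4099, 8744, 8439 and 9273. Only library 1 of TASTPM K/BxN ST fell outside the Control ST range, and it was also the library with the lowest share of microglia markers (1.55% of reads). The log2 fold change was -0.37 ± 0.29 in WT (SE, limma adjusted p = 0.787) and -0.13 ± 0.29 in TASTPM (SE, limma adjusted p = 0.972).

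Lgals8, the vesicle-damage sensor, had a narrow range. Its normalised counts were 2139, 2272 and 1689 for WT under Control ST and 1321, 1589, 1902 and 1495 under K/BxN ST, where 3 of 4 libraries were below all Control ST libraries. In TASTPM they were 1539, 1474 and 1464 under Control ST and 1844, 1383, 2327 and 1741 under K/BxN ST, where 3 of 4 libraries were above all Control ST libraries. The log2 fold change was -0.37 ± 0.21 in WT (SE, limma adjusted p = 0.734) and 0.26 ± 0.21 in TASTPM (SE, limma adjusted p = 0.964). Opposite signs in the genotypes gave an interaction of 0.63 ± 0.29 on the log2 scale (SE), with an unadjusted p = 0.0463 and an adjusted p = 0.999 by limma, and of 0.69 without the 4 libraries over 1000 Ly6c2 normalised counts (limma unadjusted p = 0.0538). With 1 library left out at a time, the unadjusted p by limma was at or above 0.05 in 11 of 14 fits and ran from 0.0201 to 0.106. Under Control ST the highest TASTPM library (1539) was below the lowest WT library (1689), a log2 difference of -0.43 ± 0.22 (SE, limma adjusted p = 0.886). The exact permutation test of 3 against 3 gave p = 0.1, the smallest it allows, and 9.69% of all genes tested had groups that did not overlap in this comparison.

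Lgals9, the galectin-9 gene, was the steadiest member. WT libraries held 6793, 6803 and 7711 normalised counts under Control ST and 5496, 7308, 8615 and 7790 under K/BxN ST. TASTPM libraries held 7920, 7776 and 6956 under Control ST and 5545, 8061, 6802 and 7511 under K/BxN ST. K/BxN ST library 1 was the lowest in both genotypes, and the groups overlapped. With a log2 fold change of 0.02 (95% interval -0.37 to 0.42) in WT and -0.12 (-0.52 to 0.27) in TASTPM by limma, the intervals lay within 1 log2 unit of no change.

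**Figure D1:**
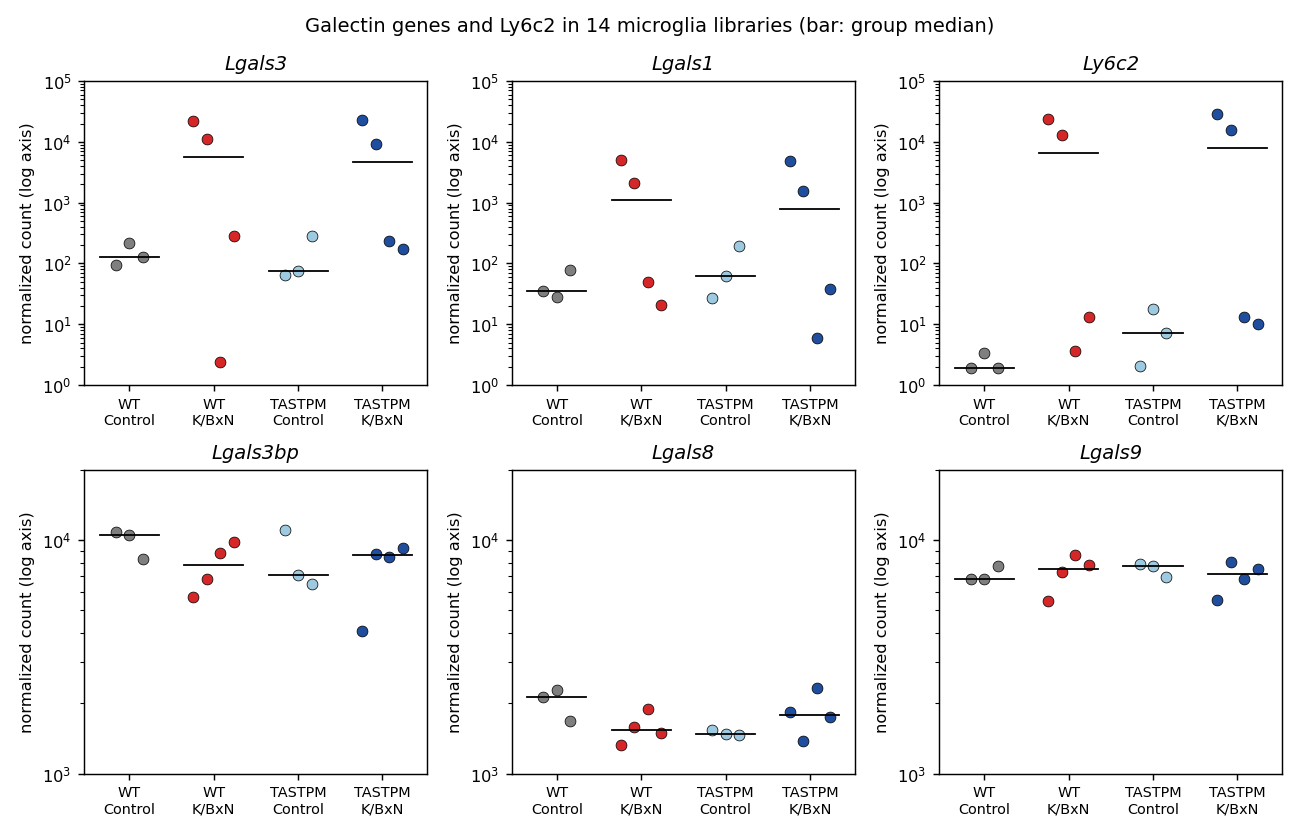
Normalised counts (log axis, with a narrower range in the second row) of 5 galectin genes and Ly6c2 in each library of the 4 groups, 1 point per library, with a bar at the group median. In Lgals3, Lgals1 and Ly6c2, libraries 1 and 2 of each K/BxN ST group stand above the rest, while Lgals3bp, Lgals8 and Lgals9 overlap between groups, except for Lgals8 between WT and TASTPM Control ST.

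As a count, 0 of the 5 members passed the test (absolute log2 fold change above 1 and adjusted p below 0.05) in limma for the serum comparison in WT, where 0.00791% of the 12645 genes tested did (1 gene, Rarg). In TASTPM likewise 0 of 5 members passed, against 0% of all genes. The interaction, TASTPM against WT under Control ST and TASTPM against WT under K/BxN ST each gave 0 of 5 members and 0% of genes. At an unadjusted p below 0.05, limma gave 0 members in either serum comparison or either genotype comparison and 1 in the interaction, Lgals8. Over all genes that level was met by limma for 902 genes in WT (7.13%), 533 in TASTPM (4.22%) and 385 in the interaction (3.04%). For genotype it was met by 704 under Control ST (5.57%) and 241 under K/BxN ST (1.91%). Lgals8 in the interaction was also below it by edgeR, as were 2.6% of genes. By edgeR 0 members and 0% of genes passed in WT and again 0 and 0% in TASTPM, while 2 members in WT (Lgals1 and Lgals3) and 1 in TASTPM (Lgals3) had an unadjusted p below 0.05, as did 6.18% of all genes in WT and 4.03% in TASTPM by edgeR. No member had groups that did not overlap between serums, against 7.38% of genes in WT and 5.41% in TASTPM, nor between genotypes under K/BxN ST, against 1.83% of genes.

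DESeq2, the count model whose size factors scaled the deposited values, gave a different call for 1 member. On the recovered reads without a filter, Lgals3 in WT had a log2 fold change of 5.84 and passed (adjusted p = 0.0373), as did 1.86% of the 14000 genes with an adjusted p that were higher in K/BxN ST. In TASTPM its log2 fold change was 5.83 and it did not pass (adjusted p = 0.0876), where 0.6% of genes passed as higher. Lgals1 did not pass in WT (log2 fold change 5.29, adjusted p = 0.0726) or in TASTPM (4.11, adjusted p = 0.458). Below an unadjusted p of 0.05 by DESeq2 were Lgals1 and Lgals3 in both serum comparisons, and Lgals8 in the interaction and between genotypes under Control ST. The share of all genes at that level by DESeq2 was not computed. Without the 4 libraries over 1000 Ly6c2 normalised counts, the DESeq2 value for Lgals3 was -0.034 in WT and 0.52 in TASTPM. In that fit 0 members passed in either genotype, and the share of all genes that passed was not computed, so this count cannot be weighed.

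Leaving the 4 libraries out of the limma fit, an alternative chosen after the data were seen, turned the direction of Lgals1 in both genotypes, of Lgals3 in WT and of Lgals3bp in TASTPM. In WT the log2 fold change became -0.39 ± 1.18 for Lgals1 and -2.17 ± 1.46 for Lgals3 (SE). In TASTPM it became -2.08 ± 1.18 for Lgals1 and 0.84 ± 1.46 for Lgals3 (SE). None of these passed the test, and each K/BxN ST group then held 2 libraries. The WT Lgals3 value rested on library 3, which has 2 reads: with library 3 also left out it was 1.03 ± 0.96, and with library 4 left out instead -5.37 ± 1.08 (SE, limma adjusted p = 1.00 and 0.369), where the lone library left is assumed to vary like the other groups. The WT Lgals1 value was -0.99 without library 3 as well and 0.21 without library 4 as well. In TASTPM, Lgals1 was -0.83 without library 3 as well and -3.34 without library 4 as well, and Lgals3 was 0.61 and 1.07. The remaining members moved less: Lgals3bp to -0.08 and 0.15, Lgals8 to -0.26 and 0.43, and Lgals9 to 0.21 and -0.08, in WT and TASTPM respectively. Library 3 of WT K/BxN ST, with 2 reads of Lgals3, weighed on the WT value too: without it the log2 fold change of Lgals3 was 4.89 (limma adjusted p = 0.550), and without library 1 it was 0.66.

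**Figure D2:**
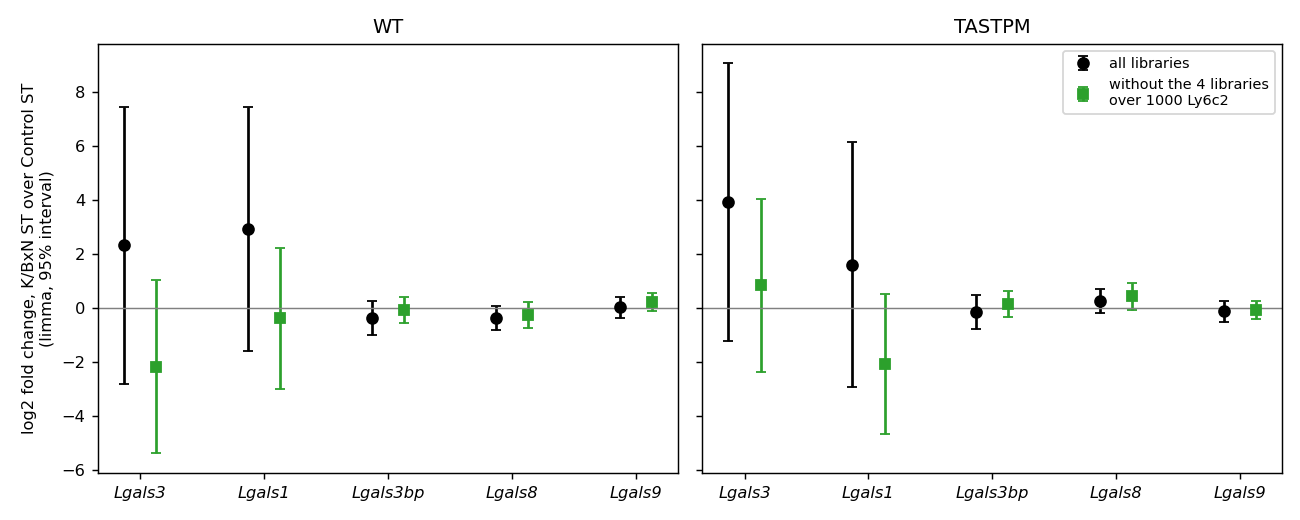
Log2 fold change of K/BxN ST over Control ST (limma, with 95% intervals) for 5 galectin genes in WT (left) and TASTPM (right), with all libraries (black circles) and without the 4 libraries over 1000 Ly6c2 normalised counts (green squares). Every interval reaches across 0, those of Lgals3 and Lgals1 are the widest, and the Lgals1 values, the WT Lgals3 value and the TASTPM Lgals3bp value cross to the other side of 0 without the 4 libraries.

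Between genotypes, the serum response of Lgals3 and Lgals1 was not shown to differ. The interaction was 1.59 for Lgals3 and -1.33 for Lgals1 (log2, limma adjusted p = 0.999 for each), with 95% intervals of -5.67 to 8.86 and -7.73 to 5.07. Without the 4 libraries over 1000 Ly6c2 normalised counts it was 3.01 for Lgals3 and -1.70 for Lgals1, and with WT K/BxN ST library 3 also left out -0.19 and -1.10. The direction for Lgals3 turned by edgeR (-0.027), by DESeq2 (-0.0085) and, in limma, without WT K/BxN ST library 3 (-0.97), and that for Lgals1 turned without TASTPM K/BxN ST library 3 (0.32). TASTPM against WT under K/BxN ST gave 1.28 ± 2.23 for Lgals3 and -0.63 ± 1.96 for Lgals1, and under Control ST -0.31 ± 2.57 and 0.69 ± 2.27 (log2, SE). These SEs pool the spread of all 4 groups, so under Control ST they also carry the spread of the K/BxN ST libraries. Fitted without the 4 libraries, the same Control ST values had SEs of 1.31 for Lgals3 and 1.06 for Lgals1. Without the 4 libraries the K/BxN ST values were 2.70 ± 1.60 for Lgals3 and -1.0 ± 1.29 for Lgals1. These directions also rested on single libraries: Lgals3 was at -0.50 with WT library 3 also left out, and Lgals1 at 0.26 with TASTPM library 3 also left out. The Lgals3 value under K/BxN ST turned by edgeR (-0.078) and DESeq2 (-0.072), and without 1 library at a time it ran from -1.28 (without WT library 3) to 2.95 (without WT library 1). The Lgals1 value ran from -2.13 (without TASTPM library 1) to 1.01 (without TASTPM library 3) and was also above 0 without WT library 1 (0.68), WT library 2 (0.27) or TASTPM library 4 (0.18). For Lgals3bp the interaction was 0.23 ± 0.41 and for Lgals9 it was -0.15 ± 0.26 (log2, SE), and without the 4 libraries 0.23 and -0.29. Lgals9 in TASTPM against WT under K/BxN ST moved from -0.06 to -0.20. With 1 library left out at a time, the interaction ran from 0.087 to 0.51 for Lgals3bp and from -0.28 to -0.042 for Lgals9. The serum comparisons do not share Control ST libraries, whereas each genotype comparison shares its libraries with both.

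Set beside Ly6c2, the family split. In the 4 libraries with over 1000 Ly6c2 normalised counts, Lgals3 ranged from 9134 to 22744 with a median of 16766, against 2.39 to 286 with a median of 150 in the other 10. Lgals1 ranged from 1552 to 5041 in the 4 and from 5.87 to 190 in the 10. The lowest of the 4 was thus 31.9 times the highest of the 10 for Lgals3 and 8.17 times for Lgals1, beside 726 times for Ly6c2 itself. Between serums, Ly6c2 had a log2 fold change of 6.82 ± 3.15 in WT and 6.04 ± 3.15 in TASTPM (SE, limma adjusted p = 0.696 and 0.964), so that it did not pass the test either. The ranges are descriptions, with no test, because the 4 libraries were set apart by a gene of the same libraries.

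In the same 4 libraries the reads of these genes were also set against each other. Lgals3 stood at 0.951 and 0.867 reads per Ly6c2 read in WT 1 and 2 and at 0.781 and 0.584 in TASTPM 1 and 2. Lgals1 stood at 0.214, 0.166, 0.165 and 0.0992 reads per Ly6c2 read in the same order. There were 4.43, 5.23, 4.74 and 5.88 Lgals3 reads for each Lgals1 read. In the other 10 libraries this ratio ran from 0.0488, with 2 Lgals3 reads in WT K/BxN ST library 3, to 40.2, with 5 Lgals1 reads in TASTPM K/BxN ST library 3, and without those 2 libraries from 1.21 to 13.7. In the 10, Ly6c2 had 2 to 16 reads, so their ratios to Ly6c2 carry large counting error.

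Lgals3bp, Lgals8 and Lgals9 did not follow Ly6c2 upward. Lgals3bp had a median of 6259 normalised counts in the 4 libraries and 9031 in the 10, of which 6 were above all of the 4. Lgals8 had medians of 1486 and 1715, with 4 of the 10 above all of the 4. Lgals9 had medians of 6426 and 7611, with 1 of the 10 above all of the 4. For each of these 3 genes no library of the 10 was below all of the 4.

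Because Ly6c2 fell into clusters, no correlation over the 14 libraries was taken. Within the 10 low libraries, 5 relations were computed on log2(normalised count + 1). Pearson's r with Ly6c2 was -0.19 for Lgals1 (Spearman's rho -0.14), 0.31 for Lgals3 (0.33), -0.50 for Lgals3bp (-0.45), -0.26 for Lgals8 (-0.32) and -0.03 for Lgals9 (0.20). The permutation p of these r values was 0.609, 0.452, 0.139, 0.455 and 0.942, and that of the rho values 0.709, 0.353, 0.191, 0.367 and 0.584, none below 0.05. The smallest Benjamini-Hochberg adjusted permutation p over the 5 relations was 0.694 for r and 0.612 for rho. Without the 2 libraries farthest from the Ly6c2 median, r was -0.27, 0.34, -0.50, 0.12 and -0.29 for the members in that order, so the sign for Lgals8 rested on those libraries. Each point rested on 2 to 16 Ly6c2 reads, and which relation this depth could show was not tested.

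**Figure D3:**
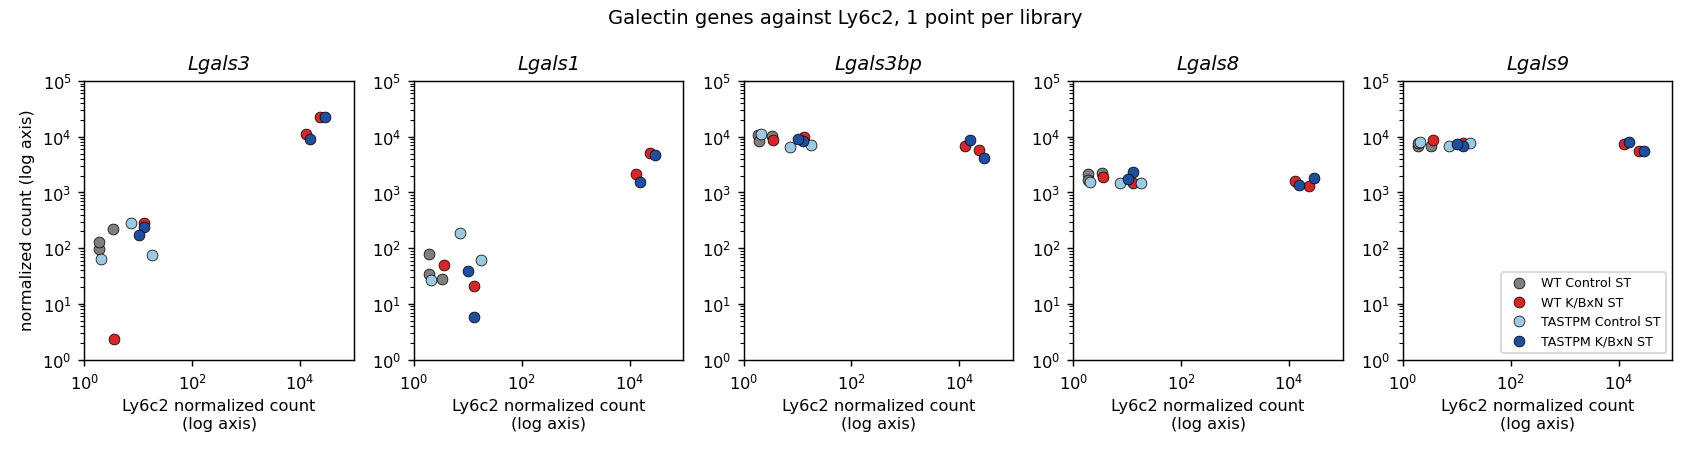
Normalised counts of each galectin gene (vertical, log axis) against Ly6c2 (horizontal, log axis), 1 point per library, coloured by group. The 4 libraries on the right, with 12898 Ly6c2 normalised counts or more, are the highest for Lgals3 and Lgals1, and lie within or below the range of the other 10 for Lgals3bp, Lgals8 and Lgals9.

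The genes most like each member over the 14 libraries, by Pearson's r of log2(normalised count + 1) among the genes tested, differed from member to member. For Lgals1 they were Crip1, a LIM-domain protein (r = 0.98), Anp32b, a histone chaperone (0.97), and the peroxiredoxin Prdx6 (0.96). For Lgals3 they were Siva1, an apoptosis regulator (0.97), Metrnl, a secreted meteorin-like protein (0.95), and the actin scaffold Iqgap1 (0.94). Without the 4 libraries over 1000 Ly6c2 normalised counts these r values were 0.81, 0.88 and 0.74 for Lgals1 and 0.89, 0.88 and 0.66 for Lgals3. Lgals3bp was most like the lipid phosphatase Plpp1 (r = 0.94), the endosomal sodium-proton exchanger Slc9a9 (0.93) and the sialomucin Cd34 (0.93). The nearest to Lgals8 were the DNA-repair endonuclease Ercc5 (0.89), the splicing factor Prpf40b (0.86) and the ubiquitin ligase Ubox5 (0.84), and the nearest to Lgals9 were Gpd1, St3gal6 and Pmp22 (0.88, 0.87 and 0.85). Over the other 10 libraries the values were 0.83, 0.84 and 0.94 for Lgals3bp, 0.87, 0.87 and 0.83 for Lgals8, and 0.52, 0.88 and 0.73 for Lgals9, each in the order above. The points share library depth and scaling, and the genes were picked for their r, so no p is given.

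Of 7 further galectin genes listed, 1 was in the deposited values: Lgalsl, a galectin-related protein thought not to bind lactose. It was low in every group. Its normalised counts were 91.9, 48.6 and 19.1 for WT under Control ST and 18.1, 45.2, 0 and 0 under K/BxN ST. For TASTPM they were 10.4, 0 and 0 under Control ST and 10.4, 13.3, 36.4 and 23.7 under K/BxN ST. The groups of each genotype overlapped, in TASTPM narrowly, and it did not pass the test by limma in WT (adjusted p = 0.698), in TASTPM (adjusted p = 0.964) or for the interaction (adjusted p = 0.999). Its log2 fold change was -3.05 in WT and 3.13 in TASTPM, and -5.50 and 3.75 without the 4 libraries, on 0 to 91.9 normalised counts.

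Receptors and surface partners of galectins were tested as 19 of 22 listed genes. By limma 0 passed in either direction in WT or TASTPM, and 0 by DESeq2, with 1 and 2 below an unadjusted p of 0.05 by limma, a level that 7.13% of all genes tested met in WT and 4.22% in TASTPM. Their median log2 fold change was -0.25 in WT and -0.03 in TASTPM, beside 0.06 and 0.01 for all genes, and -0.06 and 0.09 without the 4 libraries over 1000 Ly6c2 normalised counts. Tlr4, the lipopolysaccharide receptor, had a log2 fold change of -0.42 in WT and -0.30 in TASTPM, which became 0.02 and 0.18 without the 4 libraries. Its normalised counts in those were 2555, 3706, 2509 and 2816, below every other library (3850 to 8350). Trem2, the lipid-sensing receptor of microglia, was at -0.47 and -0.40, and at -0.10 and -0.04 without them. Ly96, the MD-2 subunit that completes the Tlr4 receptor, had -0.57 ± 0.21 in WT and -0.52 ± 0.21 in TASTPM (log2, SE, limma adjusted p = 0.645 and 0.964), and -0.36 and -0.41 without the 4. Cd44, the hyaluronan receptor, held 6074, 3118, 5787 and 2561 normalised counts in the 4 libraries and 21.0 to 357 in the other 10. Ptprc, the CD45 phosphatase that galectin-1 binds, had a log2 fold change of 0.49 ± 0.23 in TASTPM (SE, limma adjusted p = 0.964), and 0.23 without the 4, and in WT 0.22 and -0.055.

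Enzymes that build or cap galectin ligands were tested as 14 of 15 listed genes, and again 0 passed by limma or DESeq2 in either serum comparison, with 1 below an unadjusted p of 0.05 in each by limma (7.13% and 4.22% of all genes). Their median log2 fold change was -0.05 in WT and -0.23 in TASTPM, and 0.14 and -0.05 without the 4 libraries. St3gal4, a sialyltransferase, held 1970, 1236, 3049 and 800 normalised counts in the 4 libraries and 194 to 417 in the other 10. Mgat5, which makes the branched N-glycans that galectin-3 binds, had -0.78 ± 0.37 in TASTPM (log2, SE, limma adjusted p = 0.964), and -0.51 without the 4 libraries, while in WT it had 0.046, and 0.45 without them. Man2a1, a Golgi mannosidase upstream of branching, had 1.17 ± 0.46 in WT (log2, SE, limma adjusted p = 0.668), and 0.76 without the 4 libraries, and in TASTPM 0.93 and 0.85. Gcnt1, the core 2 O-glycan branching enzyme, had -0.57 ± 0.33 in WT (log2, SE, limma adjusted p = 0.734), and -0.29 without them, and in TASTPM -0.66 and -0.10.

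Partners of galectin-3 and galectin-8 at damaged endosomes and lysosomes were tested as 17 of 18 listed genes. By limma 0 passed, with 3 in WT and 2 in TASTPM below an unadjusted p of 0.05 (7.13% and 4.22% of all genes). The median log2 fold change was 0.33 in WT, and 0.09 without the 4 libraries, and in TASTPM it was 0.00, and 0.08 without them. Optn, the optineurin autophagy receptor, was the 1 gene that passed in DESeq2, in WT, where 1.86% of genes passed as higher. It had 0 reads in all 3 WT Control ST libraries and 23.5, 9.74, 68.1 and 48.0 normalised counts in WT K/BxN ST, the higher values lying in the libraries with little Ly6c2. In TASTPM it held 2.09, 36.6 and 0.909 under Control ST and 27.0, 52.3, 123 and 2.26 under K/BxN ST, groups that overlapped. Rraga, a GTPase through which mTORC1 is recruited to lysosomes, had 0.60 ± 0.21 in WT (log2, SE, limma adjusted p = 0.629), and 0.42 without the 4, and in TASTPM -0.0096 and -0.088. Pdcd6ip, the ESCRT adaptor ALIX, had 0.60 ± 0.20 in TASTPM (log2, SE, limma adjusted p = 0.964), with 0.75 without the 4 libraries, and Ulk1, the kinase that starts autophagy, had 0.91 ± 0.43 (log2, SE, limma adjusted p = 0.964), with 1.06 without them. In WT, Pdcd6ip had 0.13 and Ulk1 0.35, and without the 4 libraries -0.11 and 0.23.

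Disease-associated microglia genes, a group in which Lgals3 is often counted, were tested as 16 of 18 listed genes with 0 passing by limma or DESeq2, and 2 in WT and 1 in TASTPM below an unadjusted p of 0.05 by limma (7.13% and 4.22% of all genes). Their median log2 fold change was 0.34 in WT and 0.16 in TASTPM, and -0.09 and -0.27 without the 4 libraries. Spp1, the osteopontin gene, held 3499, 2166, 3204 and 1126 normalised counts in the 4 libraries and 3.33 to 837 in the others. Cst7, the cystatin F gene, had -1.04 ± 0.45 in WT and 0.97 ± 0.45 in TASTPM (log2, SE, limma adjusted p = 0.684 and 0.964), and -1.19 and 0.25 without the 4. Axl, a receptor for apoptotic cells, had 0.83 ± 0.37 in WT (log2, SE, limma adjusted p = 0.684), and 0.49 without the 4, and in TASTPM 0.63 and 0.76.

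Interferon-stimulated genes, set beside Lgals9, whose window held the ISRE-like matches, were tested as 17 of 18 listed genes with 0 passing by limma or DESeq2, and 1 in WT and 4 in TASTPM below an unadjusted p of 0.05 by limma (7.13% and 4.22% of all genes). Their median log2 fold change was 0.24 in WT and 0.57 in TASTPM, and 0.20 and 0.36 without the 4 libraries. The directions were mixed: of the 17 genes, 12 had a value above 0 in WT and 11 in TASTPM. Lgals9 itself was at 0.02 and -0.12, and at 0.21 and -0.08 without them. Irf7, a transcription factor of the interferon response, held 1383, 1268, 1752 and 1488 normalised counts in the 4 libraries and 0 to 387 in the others. Oasl2 and Oas1a, of the oligoadenylate synthetase family, had 1.58 ± 0.54 and 1.70 ± 0.60 in TASTPM (log2, SE, limma adjusted p = 0.964 each), and 0.73 and 0.95 without the 4. In WT they had 0.51 and 1.16, and -0.097 and 0.39 without the 4. Usp18, the protease that removes ISG15, had 0.98 ± 0.43 in WT (log2, SE, limma adjusted p = 0.684), and 1.04 without the 4, and in TASTPM -0.028 and -0.36.

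**Figure D4:**
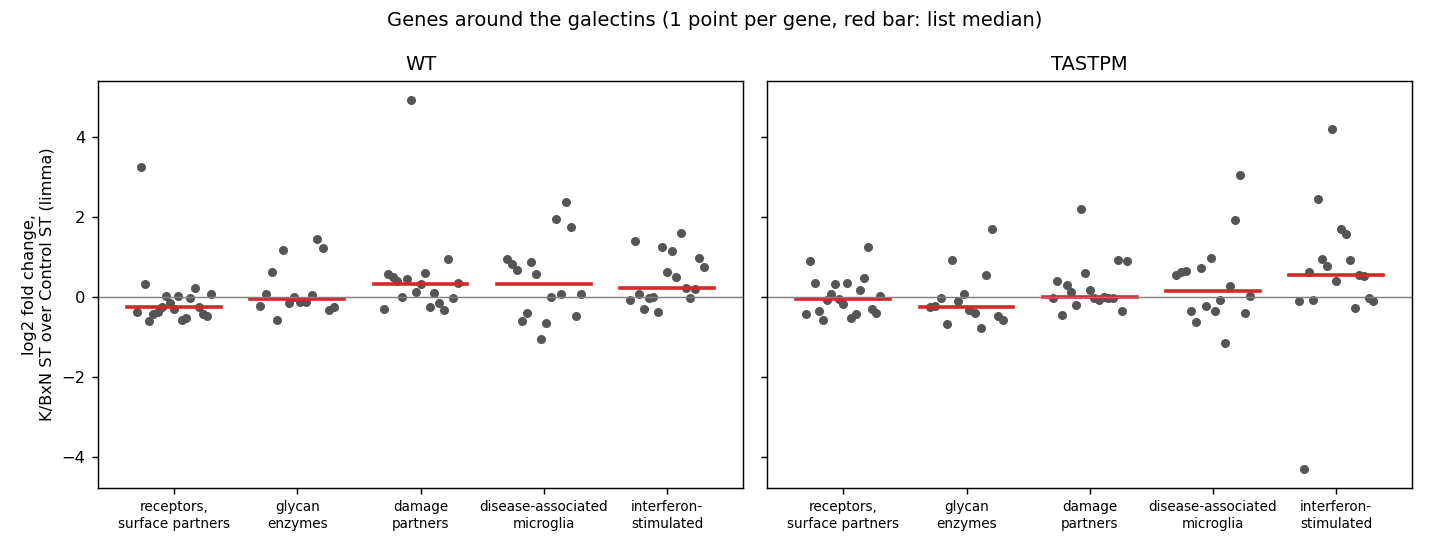
Log2 fold change of K/BxN ST over Control ST (limma) for the genes of 5 lists around the galectins, 1 point per gene, in WT (left) and TASTPM (right), with red bars at the list medians. In WT the medians lie between -0.25 and 0.34, in TASTPM between -0.23 and 0.57, and no point passed the test.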

How the data were processed

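CD45low CD11b+ CX3CR1+ microglia of 14 mouse samples gave SMART-Seq cDNA and RNA-seq libraries. The authors aligned reads with HISAT2 2.1 to GRCm39, counted with featureCounts 1.5.2 and deposited a normalised signal, the read count divided by 1 DESeq2 size factor per library. Whole reads were recovered for 100% of values (tolerance 0.1). Of 14336 entries, 7 repeated an identifier and were dropped. Genes reaching 10 reads in 7 or more libraries (12645, all 5 members among them) were tested on log2(normalised count + 1) with limma 3.58.1 (R 4.3.3), 1 fit to the 4 groups, a trend in the prior variance and Benjamini-Hochberg adjustment over these genes. A fold change on that scale understates that of low genes. Single genes also had two-sided exact permutation tests. The signal unit made limma the main test, and edgeR 4.0.16 and DESeq2 1.42.0 were run on the recovered reads. Alternatives covered scaling by TMM, the pseudocount, the filter, the libraries fitted and each library left out. The fits were tested on simulated data of the WT serum comparison, in which DESeq2 recovered more of the changed genes than limma or edgeR and made more false calls. The simulated spread came from Control ST libraries, without the split seen among K/BxN ST libraries. It therefore cannot show which test is right for Lgals1 or Lgals3. A minimum of 3 reads was taken as the floor. Named genes were the members, Ly6c2, Tlr4, Trem2, the 2 genes of each list with the smallest p in each serum comparison, any called, and the 3 with the highest r for each member. Members and lists were chosen with earlier results of these data known. P values measure the spread between these samples, which limma pools over the 4 groups for each gene. The floor covers counting error only, since reads carry no molecular identifiers. Part of the TASTPM genotype is not reported here.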

Additional observations from a re-analysis of the deposited data

Results flagged for a closer look

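In TASTPM K/BxN ST the lowest Lgals3bp library, number 1, held 4099 normalised counts against 8439 to 9273 in the other 3. Its gap to the nearest library was 0.839 of the range of the group, above Dixon's 95% critical value for 4 samples. Chance gives such a gap in about 1 in 20 groups, and this library also had the lowest share of microglia markers (1.55% of reads) and the highest Ly6c2 (29133 normalised counts).

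The serum response of Lgals8 had an unadjusted p below 0.05 for a difference between genotypes and did not pass after adjustment: the interaction was 0.63 on the log2 scale by limma, with an unadjusted p = 0.0463 and an adjusted p = 0.999. Of the 4 K/BxN ST libraries, 3 were below all Control ST libraries in WT and 3 were above all in TASTPM. Over the alternatives the interaction ranged from 0.48 to 0.90, with adjusted p from 0.636 to 1.00. The unadjusted p by limma was 0.0538 without the 4 libraries over 1000 Ly6c2 normalised counts, and with 1 library left out at a time it was at or above 0.05 in 11 of 14 fits (0.0201 to 0.106).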

How the results depend on the processing

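Of 145 member values recomputed under the alternatives chosen at the start, apart from leaving out a library, 140 kept their direction and their side of the threshold. By DESeq2 Lgals3 in WT (5.84) passed, so 1 member was called there in place of 0. Lgals3 turned in the interaction (-0.027 by edgeR, -0.0085 by DESeq2) and in TASTPM against WT under K/BxN ST (-0.078 and -0.072), and the cause was not tested. Scaling by TMM moved the median of all genes by at most 0.014.

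Leaving out 1 library at a time turned 21 of 210 values, none of them past the threshold, with these log2 ranges. In WT, Lgals9 ran from -0.063 to 0.15, and in TASTPM, Lgals3bp ran from -0.28 to 0.14. TASTPM against WT under Control ST ran from -0.98 to 0.080 for Lgals3 and from -0.032 to 1.35 for Lgals1. Under K/BxN ST it ran from -2.13 to 1.01 for Lgals1, -1.28 to 2.95 for Lgals3, -0.20 to 0.21 for Lgals3bp and -0.19 to 0.046 for Lgals9. The interaction ran from -0.97 to 3.26 for Lgals3 and from -2.83 to 0.32 for Lgals1. Lgals3 in the interaction and under K/BxN ST turned without WT K/BxN ST library 3.

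The alternatives chosen after the data were seen turned 27 of 120 values. Without the 4 libraries over 1000 Ly6c2 normalised counts limma gave -0.39 for Lgals1 and -2.17 for Lgals3 in WT, and -2.08 for Lgals1 and 0.15 for Lgals3bp in TASTPM. DESeq2 without them gave -0.41 and -0.034 in WT and -2.07 and 0.11 in TASTPM for the same genes. With log2 Ly6c2 as a covariate the values were -1.37, -2.51 and 0.016 for Lgals1, Lgals3 and Lgals3bp in WT, -2.21, -0.36, 0.21 and 0.018 for Lgals1, Lgals3, Lgals3bp and Lgals9 in TASTPM, and -0.088 for Lgals1 in TASTPM against WT under Control ST. Ly6c2 was high only in K/BxN ST libraries, so this covariate takes up part of the serum difference. It also fits 1 slope across separate clusters, and no conclusion is drawn from these values. Without the 4 libraries and 1 more K/BxN ST library, values that differed in direction from the fit to all libraries were, without WT number 3, -0.99 for Lgals1 and 0.0013 for Lgals3bp in WT, and for Lgals3 -0.19 in the interaction and -0.50 in TASTPM against WT under K/BxN ST. Without WT number 4 they were -5.37 for Lgals3 in WT and 0.0093 for Lgals3bp in TASTPM against WT under K/BxN ST. Without TASTPM number 3 they were -0.83 for Lgals1 and 0.22 for Lgals3bp in TASTPM and 0.26 for Lgals1 in TASTPM against WT under K/BxN ST. Without TASTPM number 4 they were -3.34 for Lgals1 and 0.079 for Lgals3bp in TASTPM.

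No paired analysis was possible because the labels share no replicate number between groups.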
